A study of Mus musculus with 11 samples.

Results

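The 9 genes of homologous recombination and of the DNA damage checkpoint (Brca1, Brca2, Palb2, Bard1, Fancd2, Atm, Atr, Chek1 and Chek2) were followed across 11 RNA-seq libraries of the mouse mammary gland. They were a list set by name and matched by Entrez identifier to mouse symbols. This list and those used below were chosen with earlier results of these data known. The 9 members are 9 of the 27179 genes in the count tables. They are also 9 of the 15422 genes that passed a filter of over 0.5 CPM (read counts scaled to library size) in at least 3 libraries. Each level was read beside that of Mki67, a nuclear protein gene widely used as a marker of cycling cells, in the same library. The sorted populations came from 8-week-old virgin FVB/N females of wild type, with 3 libraries each: MaSC/basal cells (CD24+CD29hi, which hold the stem cells together with myoepithelial cells), luminal progenitor-enriched cells (LP, CD24+CD29loCD61+) and mature luminal-enriched cells (ML, CD24+CD29loCD61-). The remaining libraries were 1 of mammospheres, grown for 1 week without adhesion from FVB/N MaSC/basal cells (its title may join more than 1 culture), and 1 of Comma Dβ, an established line from Balb/c mammary gland in mid-pregnancy. The labels do not say whether a library came from 1 mouse or a pool, so p-values measure the spread between these libraries. The name given to MaSC/basal replicate 1 holds the string p53, although its genotype is labelled wild type, and without it the members called higher were again 5 against LP and 6 against ML.

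Homologous recombination repairs breaks in both DNA strands by copying the sister chromatid, and so works mainly in cells that have replicated their DNA. BRCA1 and its partner BARD1 act at the resected break, PALB2 bridges BRCA1 to BRCA2, and BRCA2 prepares the exposed strand for the search for the matching sequence. The kinases ATM and ATR sense breaks and stalled forks and signal through CHK2 and CHK1, encoded by Chek2 and Chek1, while FANCD2 is the chromatin-bound effector of the Fanconi anaemia pathway for cross-linked DNA. Inherited mutations in BRCA1, BRCA2 and PALB2 predispose women to breast cancer, which is why the cell type that carries these transcripts in the gland has been of interest.

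The libraries held 19958838 (LP replicate 3) to 75795034 (ML replicate 2) assigned reads, and the shallowest member value was 31 reads, for Palb2 in LP replicate 3 and for Bard1 in ML replicate 3. Summed basal keratin, Trp63 and Acta2 levels were 12400 to 16400 CPM in MaSC/basal and at most 312 CPM in luminal libraries, and Krt8, Krt18 and Cdh1 summed to 734 to 913 CPM in MaSC/basal and 7930 to 9820 CPM in LP, in accord with the labels. Comma Dβ had 1490 CPM of the basal markers and 117 CPM of the luminal ones, and mammospheres had 3270 and 2120 CPM. Of the markers of other cells, the 4 endothelial genes summed to between 40.5 and 82.9 CPM in MaSC/basal, to between 10.4 and 24.5 CPM in LP and to between 7.1 and 34.8 CPM in ML, with none at 0 in any of these groups, and 3 of 4 were called higher in MaSC/basal than in LP and 2 of 4 than in ML. The 8 immune markers summed to 13.1 to 16.4, 16.5 to 25.9 and 8.2 to 14.4 CPM in MaSC/basal, LP and ML. The 4 fibroblast markers summed to 397 to 515, 183 to 728 and 348 to 626 CPM, and the 3 haemoglobin genes matched summed to at most 10.1 CPM. The part of these other cells in the member differences was not tested. In bulk RNA, fewer cells of a type and less RNA in each cell cannot be told apart.

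The promoters are shown because the members were compared with proliferation, and the factors that bind these letters are known for genes of the cell cycle. Of the 9 members, 8 had a RefSeq promoter entry (GRCm38.p6), while Fancd2 had none and was not searched. The 250 bases before the start of each entry were searched on both strands for E2F letters (TTTCCCGC, TTTGGCGC, TTTCGCGC or TTTGCCGC), CHR letters (TTTGAA or TTCGAA) and the letters CCAAT. E2F letters were present in 3 of the 8 (Bard1, Brca2 and Chek2) and in 1.86% of 32851 promoters of the same length. CHR letters were found in 2 of 8 (Atr and Bard1) against 17.1% of all promoters, and CCAAT in 3 of 8 (Atm, Brca1 and Chek2) against 33.8%. These are matches of letters, which were not tested as binding sites. For Brca2, Chek2, Bard1, Atm and Palb2 the start of the promoter entry lies inside the gene bounds given below. The Brca2 window lies wholly inside these bounds, and the windows of the others named lie inside them in part. The E2F letters of Brca2 and Chek2 are thus inside the gene bounds, and those of Bard1 lie before them. The sequences run 5′ to 3′ in gene orientation, with matches in capitals, and lie at chr11:101551956-101552205 (minus strand) for Brca1, chr7:122132947-122133196 (minus) for Palb2, chr1:71102973-71103222 (minus) for Bard1, chr5:150522371-150522620 (plus) for Brca2 and chr5:110839733-110839982 (plus) for Chek2. Palb2 stands for the members with no match, and the other 4 carry the matches of the BRCA complexes and of Chek2.
Brca1: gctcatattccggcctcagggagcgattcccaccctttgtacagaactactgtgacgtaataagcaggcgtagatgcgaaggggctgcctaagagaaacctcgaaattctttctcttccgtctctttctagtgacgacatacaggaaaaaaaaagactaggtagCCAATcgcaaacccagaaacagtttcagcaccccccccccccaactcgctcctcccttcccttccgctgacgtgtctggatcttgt
Palb2: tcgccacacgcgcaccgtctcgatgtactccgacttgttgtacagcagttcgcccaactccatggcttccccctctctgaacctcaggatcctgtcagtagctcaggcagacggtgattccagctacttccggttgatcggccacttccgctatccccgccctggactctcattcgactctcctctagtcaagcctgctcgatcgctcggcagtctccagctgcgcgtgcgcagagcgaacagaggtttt
Bard1: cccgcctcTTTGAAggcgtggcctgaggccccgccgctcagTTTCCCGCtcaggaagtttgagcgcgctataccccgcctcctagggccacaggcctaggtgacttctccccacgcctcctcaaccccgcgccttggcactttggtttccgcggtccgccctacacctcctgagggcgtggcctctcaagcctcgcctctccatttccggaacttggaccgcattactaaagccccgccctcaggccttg
Brca2: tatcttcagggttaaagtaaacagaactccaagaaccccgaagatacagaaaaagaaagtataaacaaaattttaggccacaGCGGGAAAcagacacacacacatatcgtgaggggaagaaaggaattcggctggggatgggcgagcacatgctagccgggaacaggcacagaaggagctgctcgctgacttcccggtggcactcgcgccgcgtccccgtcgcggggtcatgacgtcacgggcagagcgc
Chek2: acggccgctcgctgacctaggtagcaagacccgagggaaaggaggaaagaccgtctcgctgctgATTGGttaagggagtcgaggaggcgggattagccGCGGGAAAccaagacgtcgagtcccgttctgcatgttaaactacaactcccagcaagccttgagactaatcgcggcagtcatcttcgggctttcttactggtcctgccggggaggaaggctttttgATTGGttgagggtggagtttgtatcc
Bard1 held both E2F and CHR letters, the E2F match ending 202 bases before the start of its promoter entry. It is nearer to the outer gene bound given below, because that start lies inside the bounds. Brca1 held CCAAT only, from 86 bases before the start, and Chek2 held CCAAT at 2 places beside its E2F letters. Palb2 and Chek1 held none of these letters in this window. Their log2 CPM correlated with that of Mki67 at a Pearson r of 0.58 and 0.89 over the 11 libraries. The ratio of Chek1 reads to Mki67 reads was not constant, as given below.

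Mki67 itself set the scale of the comparison. It was at 244, 176 and 191 CPM in MaSC/basal replicates 1 to 3, at 43.1, 32.2 and 39.8 CPM in LP, at 43.8, 40.7 and 38.1 CPM in ML, at 115 CPM in the mammosphere library and at 565 CPM in the Comma Dβ line. MaSC/basal libraries did not overlap either luminal population, while LP and ML overlapped each other. The log2 fold change was 2.41 (SE 0.17, adjusted p = 1.86e-06) against LP and 2.32 (SE 0.17, adjusted p = 1.95e-06) against ML, and -0.09 between LP and ML (SE 0.16, adjusted p = 0.692). Of 21 proliferation genes, 20 were called higher in MaSC/basal than in LP and 21 than in ML, and the largest differences from LP were those of the mitotic cyclin Ccnb1 (log2 3.85) and the ribonucleotide reductase subunit Rrm2 (3.75).

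**Figure D1:**
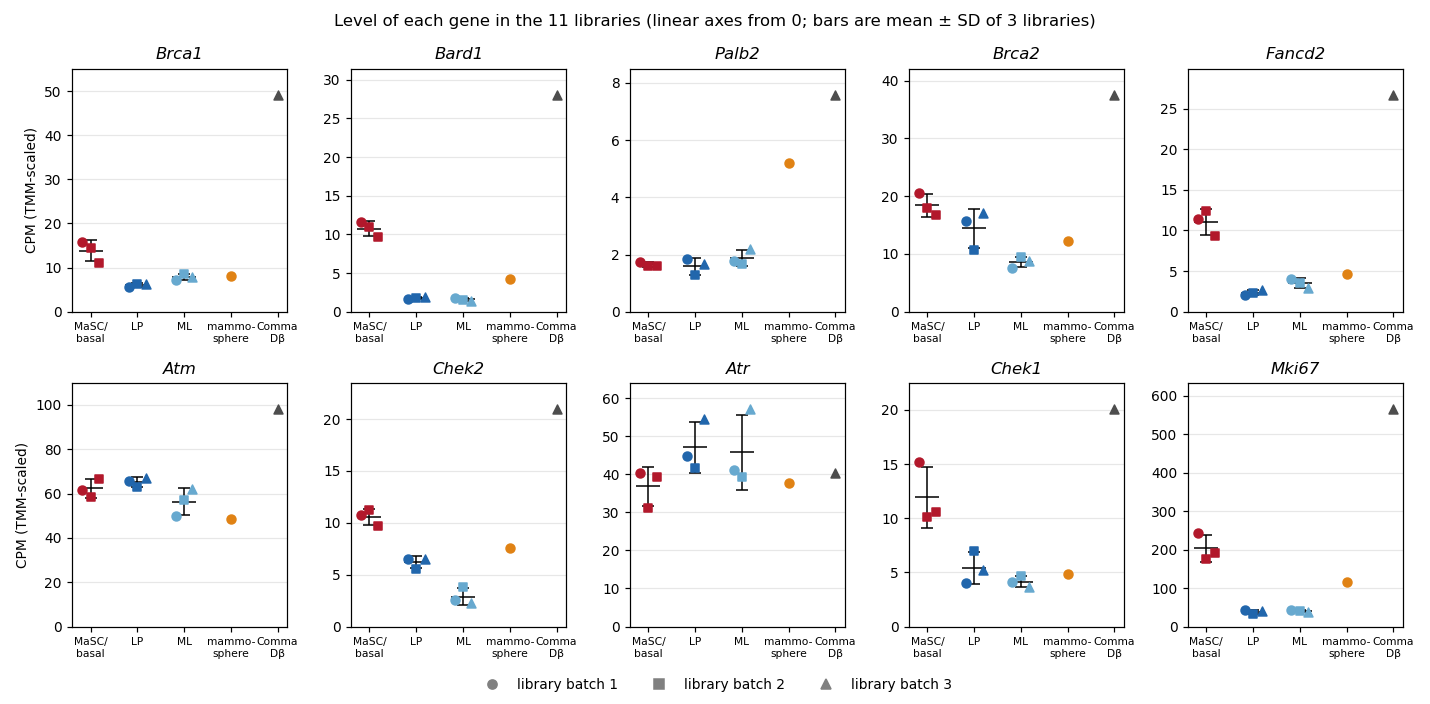
TMM-scaled CPM (linear axes from 0) of the 9 members and Mki67 in each of the 11 libraries, by sample type, with marker shape for the library batch and bars for mean ± SD of 3 libraries. Bard1, Fancd2, Chek1, Brca1 and Chek2 are higher in the 3 MaSC/basal libraries than in all 6 luminal ones, as Mki67 is, while Palb2, Atm and Atr are not. The share of all genes separated in this way was not computed, but 29.4% were called higher than in LP and 28.9% than in ML.

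The members Bard1, Fancd2, Brca1, Chek1 and Chek2, were higher in MaSC/basal than in LP cells, and the same 5 with Brca2 were higher than in ML cells. The first group is 5 of 9 members against 29.4% of all genes tested called higher in that comparison, and the second is 6 of 9 against 28.9%. No member was lower in either comparison, against 28.0% of all genes for LP and 29.7% for ML, and 0 were lower at an unadjusted p under 0.05 by edgeR, limma voom or DESeq2. The median log2 difference of the 9 members was 0.77 against LP and 1.10 against ML, beside -0.01 over all genes tested in both. These comparisons share the MaSC/basal libraries, so that they are not independent of each other. The share of all genes whose libraries were separated between populations was not computed, so non-overlap is given for each gene as a description only.

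Among the genes of the BRCA complexes, Brca1 (Entrez 12189, GRCm38 chromosome 11, 101488761 to 101551955) was at 15.7, 14.5 and 11.1 CPM in MaSC/basal, 5.64, 6.38 and 6.36 CPM in LP and 7.27, 8.64 and 7.98 CPM in ML. All 3 MaSC/basal libraries were above all luminal ones, and all ML libraries were above all LP libraries. The log2 fold change from MaSC/basal was 1.17 (SE 0.17, adjusted p = 0.000259) over LP and 0.79 (SE 0.17, adjusted p = 0.00264) over ML. Within library batches the difference from LP was 1.47 in batch 1 and 0.99 in batch 2, and that from ML was 1.11 and 0.56 (batch 3 held no MaSC/basal library). LP was below ML in each of the 3 batches, by a log2 of -0.36, -0.43 and -0.33, but the test across all genes did not call it (-0.38, SE 0.17, adjusted p = 0.123).

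Bard1 (Entrez 12021, chromosome 1, 71027535 to 71103141), which encodes the obligate partner of BRCA1, showed the largest difference of the 9. It was at 11.5, 11 and 9.67 CPM in MaSC/basal, at 1.59, 1.72 and 1.87 CPM in LP and at 1.81, 1.56 and 1.41 CPM in ML. The luminal libraries overlapped each other and lay far below MaSC/basal. The log2 fold change was 2.64 over LP (SE 0.19, adjusted p = 2.3e-06) and 2.75 over ML (SE 0.19, adjusted p = 1.49e-06), with within-batch values of 2.83 and 2.55 against LP and 2.64 and 2.69 against ML. Side by side, the difference of MaSC/basal from LP was thus larger for Bard1 than for Brca1 in both batches that could be compared, although that contrast between the partner genes was not tested.

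Palb2 (Entrez 233826, chromosome 7, 122107262 to 122132980) was the member with the lowest level in MaSC/basal and did not separate the sorted populations. It was at 1.75, 1.62 and 1.60 CPM in MaSC/basal, 1.83, 1.27 and 1.66 CPM in LP and 1.78, 1.68 and 2.19 CPM in ML, and all 3 groups overlapped. The log2 differences were 0.07 (SE 0.24, adjusted p = 0.82) against LP and -0.18 (SE 0.24, adjusted p = 0.547) against ML. With 31 to 126 reads in a sorted library, it was, together with Bard1 in luminal cells, the most thinly counted member.

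Brca2 (Entrez 12190, chromosome 5, 150522297 to 150570147) separated LP from ML. It was at 20.6, 17.96 and 16.7 CPM in MaSC/basal, 15.7, 10.7 and 17.1 CPM in LP and 7.64, 9.40 and 8.75 CPM in ML. LP libraries overlapped MaSC/basal and lay above all ML libraries. MaSC/basal exceeded ML by a log2 of 1.10 (SE 0.20, adjusted p = 0.000825), with 1.43 and 0.88 within batches, and LP exceeded ML by 0.75 (SE 0.20, adjusted p = 0.0183), with 1.04, 0.18 and 0.96 in batches 1 to 3. The difference of MaSC/basal from LP did not pass the test (0.35, SE 0.20, adjusted p = 0.148). The LP to ML call rested on single libraries, the adjusted p being 0.0558 without LP replicate 1, 0.0564 without LP replicate 3 and 0.0713 without ML replicate 1, and it was not made with library totals in place of TMM scaling.

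Fancd2 (Entrez 211651, chromosome 6, 113531640 to 113597020) was, like Bard1, higher in MaSC/basal than in both luminal populations. It was at 11.5, 12.4 and 9.31 CPM in MaSC/basal, 2.12, 2.30 and 2.67 CPM in LP and 4.07, 3.55 and 2.92 CPM in ML, and the 3 groups did not overlap. MaSC/basal exceeded LP by a log2 of 2.23 (SE 0.21, adjusted p = 1.16e-05; 2.41 and 2.20 within batches) and ML by 1.65 (SE 0.20, adjusted p = 6.39e-05; 1.48 and 1.59 within batches). LP was below ML in all 3 batches (-0.93, -0.61 and -0.13), at an adjusted p of 0.0563. Fancd2 shares 441 exon bases with Fancd2os on the opposite strand, a gene with 82 reads over the 11 libraries against 3490 for Fancd2, and reads of such a pair cannot be told apart without strand.

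On the side of ATM, the kinase gene and its target behaved differently. Atm (Entrez 11920, chromosome 9, 53437122 to 53536828) was at 61.8, 58.3 and 66.7 CPM in MaSC/basal, 65.7, 62.9 and 66.9 CPM in LP and 49.7, 57.2 and 61.9 CPM in ML. MaSC/basal overlapped both luminal groups, and no comparison was called: the log2 differences were -0.07 against LP (adjusted p = 0.664), 0.15 against ML (adjusted p = 0.314) and 0.21 between LP and ML (adjusted p = 0.203), each with an SE of 0.12. All LP libraries lay above all ML libraries for Atm, by a log2 of 0.40, 0.14 and 0.11 within batches 1 to 3. Chek2 (Entrez 50883, chromosome 5, 110839800 to 110874140), which encodes the kinase activated by ATM, was at 10.7, 11.2 and 9.67 CPM in MaSC/basal, 6.52, 5.54 and 6.52 CPM in LP and 2.57, 3.80 and 2.28 CPM in ML. The 3 groups formed a descending order without overlap, and Chek2 was the only member called in all 3 comparisons. The log2 fold changes were 0.77 over LP (SE 0.21, adjusted p = 0.0108; 0.72 and 0.91 within batches), 1.85 over ML (SE 0.22, adjusted p = 5.06e-05; 2.04 and 1.44) and 1.08 for LP over ML (SE 0.22, adjusted p = 0.00559; 1.33, 0.54 and 1.497).

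On the side of ATR, the same split was seen. Atr (Entrez 245000, chromosome 9, 95857597 to 95953217) was at 40.2, 31.0 and 39.4 CPM in MaSC/basal, 44.8, 41.7 and 54.5 CPM in LP and 41.1, 39.2 and 57.0 CPM in ML. LP libraries lay above all MaSC/basal libraries, but the difference was not called (-0.35, SE 0.18, adjusted p = 0.124), nor was that against ML (-0.31, SE 0.18, adjusted p = 0.166) or between LP and ML (0.04, adjusted p = 0.888). In batch 3, which held no MaSC/basal library, Atr was at its highest in both luminal populations. Atr shares exon bases with 2 opposite-strand genes, 1700065D16Rik and Gm16794, which had 64 and 265 reads against 19044 for Atr. Chek1 (Entrez 12649, chromosome 9, 36708482 to 36726658), which encodes the kinase activated by ATR, was at 15.2, 10.1 and 10.6 CPM in MaSC/basal, 4.06, 7.001 and 5.18 CPM in LP and 4.07, 4.67 and 3.69 CPM in ML. MaSC/basal did not overlap the luminal libraries. The log2 fold change was 1.136 over LP (SE 0.25, adjusted p = 0.00302) and 1.52 over ML (SE 0.25, adjusted p = 0.000475), and it varied by batch, with 1.89 in batch 1 and 0.56 in batch 2 against LP and 1.89 and 1.138 against ML.

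**Figure D2:**
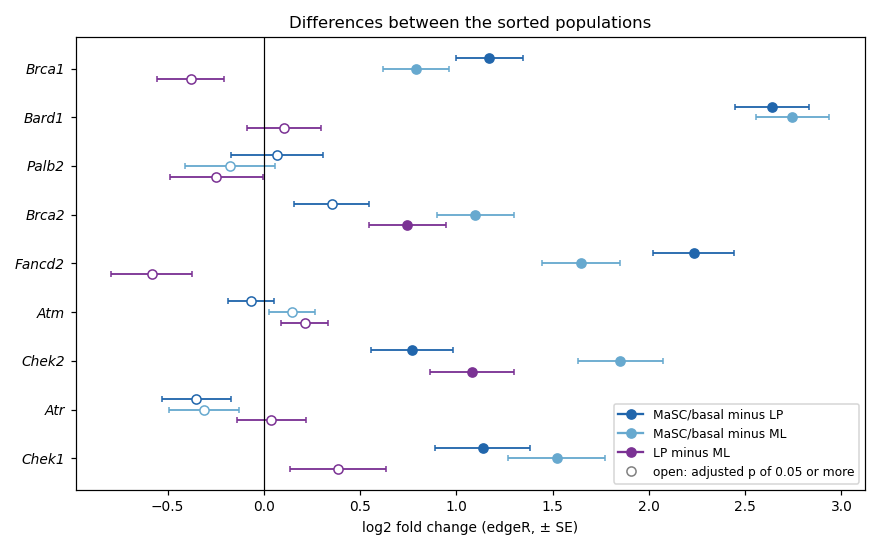
Log2 fold change (x axis, edgeR, bars are SE) of each of the 9 members in the 3 comparisons of sorted populations, with filled points for an adjusted p under 0.05. Bard1 and Fancd2 lie farthest to the right against LP at 2.64 and 2.23, Palb2, Atm and Atr have open points throughout, and Brca2 and Chek2 have filled points for LP minus ML.

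Between the luminal populations, 2 of 9 members (Chek2 and Brca2) were higher in LP, against 14.3% of all genes tested, and 0 were lower by edgeR, against 17.5%. At an unadjusted p under 0.05, 1 member was lower by edgeR and 1 by limma voom, and DESeq2 called Fancd2 lower at an adjusted p of 0.0406. Scaling mattered here: with library totals in place of TMM the median of all genes moved by -0.17 in this comparison (and by 0.15 for MaSC/basal minus LP), and then Chek2 alone was called higher while Brca1 (-0.55, adjusted p = 0.0484) and Fancd2 (-0.75, adjusted p = 0.0248) were called lower. Brca1 and Brca2 therefore had log2 differences of opposite sign between LP and ML, -0.38 and 0.75, of which the second passed the test with TMM scaling and the first with library totals.

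Per kilobase of exon, which allows levels to be compared between genes, Atm and Atr stood among the first 3 members in each sorted population. In MaSC/basal the CPM per kb were 4.87 to 5.58 for Atm, 4.30 to 5.00 for Chek2, 3.84 to 4.98 for Atr and 2.97 to 4.48 for Chek1, so that the first 3 overlapped. Fancd2 (1.95 to 2.60), Brca1 (1.68 to 2.37), Bard1 (1.77 to 2.12) and Brca2 (1.56 to 1.92) formed a second set whose neighbours overlapped, and Palb2 was apart at 0.43 to 0.47. In LP the order began with Atr (5.17 to 6.75) and Atm (5.26 to 5.59), which overlapped, and ended with Palb2 (0.34 to 0.49) and Bard1 (0.29 to 0.34), which also touched. In ML, Atr (4.86 to 7.06) and Atm (4.15 to 5.18) overlapped at the top, Chek2 (1.01 to 1.69), Chek1 (1.09 to 1.37) and Brca1 (1.09 to 1.30) overlapped next, then came Brca2 (0.71 to 0.88), Fancd2 (0.61 to 0.85) and Palb2 (0.45 to 0.58), and Bard1 was lowest at 0.26 to 0.33. In the Comma Dβ line the order was another one, with Chek2 (9.32), Atm (8.19) and Brca1 (7.40) first and Atr (5.0) after Chek1, Fancd2 and Bard1. Bard1 stood at about the level of Brca1 in MaSC/basal and well below it in all 6 luminal libraries.

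Set against proliferation, Bard1 tracked Mki67 most closely. Its reads per 100 Mki67 reads were 4.73, 6.24 and 5.06 in MaSC/basal, 3.68, 5.36 and 4.70 in LP, 4.13, 3.83 and 3.70 in ML, 3.70 in mammospheres and 4.97 in Comma Dβ, a 1.7-fold range over the 11 libraries in which its CPM spanned 19.9-fold. Fancd2 had 4.70, 7.05 and 4.87 in MaSC/basal, 4.91, 7.16 and 6.71 in LP, 9.29, 8.73 and 7.65 in ML, 4.00 in mammospheres and 4.73 in Comma Dβ, a 2.33-fold range. For both genes the ratio in MaSC/basal overlapped that in LP. For Bard1 all ML libraries lay below all MaSC/basal libraries, and for Fancd2 all ML libraries lay above the others.

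For the other members the ratio was higher in luminal than in MaSC/basal libraries, except that Chek2 overlapped in ML. Brca1 had 6.45, 8.24 and 5.83 reads per 100 Mki67 reads in MaSC/basal, 13.1, 19.9 and 15.97 in LP and 16.6, 21.3 and 20.9 in ML, with 6.97 in mammospheres and 8.71 in Comma Dβ. Brca2 had 8.45, 10.2 and 8.75 in MaSC/basal, 36.4, 33.1 and 43.0 in LP and 17.4, 23.1 and 22.9 in ML. Neither overlapped between MaSC/basal and the luminal populations, and for Brca2 LP and ML did not overlap either. Chek2 had 4.40, 6.38 and 5.06 in MaSC/basal, 15.1, 17.2 and 16.4 in LP and 5.87, 9.35 and 5.97 in ML, so that its ratio in ML overlapped that in MaSC/basal. Over the 11 libraries the ratio spanned 6.13-fold for Chek1, 8.0-fold for Palb2, 11.3-fold for Atm and 20.9-fold for Atr, whose CPM spanned 5.43-fold, 5.96-fold, 2.02-fold and 1.84-fold. A ratio of this kind shows only that a gene and Mki67 changed unequally. Mki67 was itself higher in MaSC/basal, by a log2 of 2.41 over LP and 2.32 over ML. The median of all genes tested was -0.01 in both comparisons. A gene that does not differ between the populations therefore has a higher luminal ratio, and such a separation need not be particular to the members. The share of all genes separated by this ratio was not computed.

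**Figure D3:**
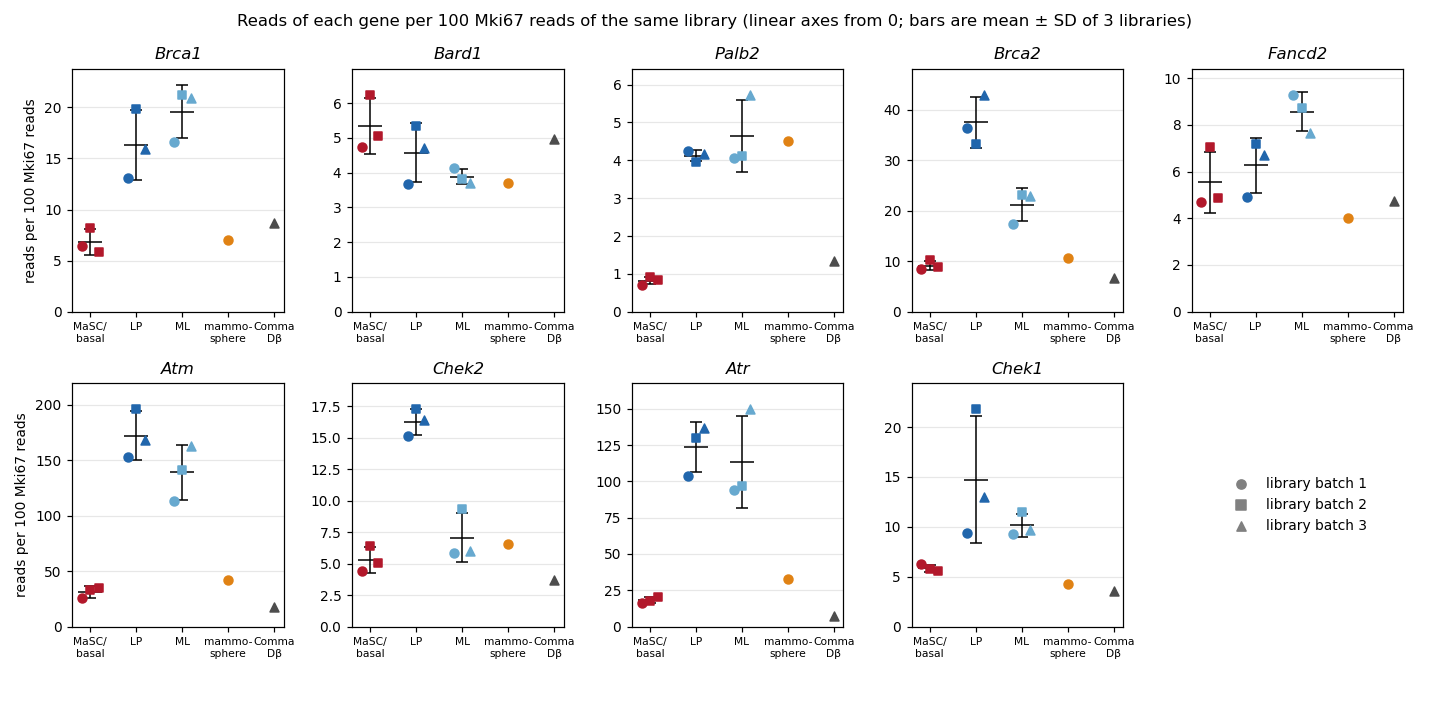
Reads of each member per 100 Mki67 reads of the same library (linear axes from 0) by sample type, with marker shape for the library batch and bars for mean ± SD of 3 libraries. The ratio of Bard1 stays between 3.68 and 6.24 in all 11 libraries, whereas those of Brca1, Brca2, Palb2, Atm, Atr and Chek1 are higher in every luminal library than in every MaSC/basal library. Mki67 is lower in luminal libraries, so a gene that does not differ between the populations also has a higher luminal ratio.

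Proliferation could not be separated from cell type by a covariate. The mean log2 CPM of the 21 proliferation genes lay between 5.11 and 5.90 in MaSC/basal libraries, between 3.15 and 3.33 in LP and between 3.18 and 3.62 in ML, without overlap between MaSC/basal and the luminal libraries. With this score as a covariate, edgeR called 0 of the 9 members in MaSC/basal against LP and 0 against ML (1 member at an unadjusted p under 0.05 in each), and the calls over all genes fell from 4529 higher and 4324 lower to 361 and 259 against LP and from 4462 and 4584 to 752 and 505 against ML. Of the 5 members called over LP without it, the estimates with the covariate were 1.89 for Bard1 (adjusted p = 0.157), 1.09 for Fancd2 (0.427), 0.19 for Chek1 (0.932), 0.17 for Brca1 (0.905) and -0.34 for Chek2 (0.844), and over ML Bard1 was at 2.08 (adjusted p = 0.0745). Between LP and ML, where the score overlapped, Chek2 (1.21, adjusted p = 0.00679) and Brca2 (0.82, adjusted p = 0.0241) were called with the covariate as without it. With Mki67 alone as the covariate, a fit chosen after the data had been seen, 0 members were called against LP or ML, also at an unadjusted p under 0.05, while all-gene calls fell to 1 higher and 0 lower against LP and to 87 and 29 against ML, and were 1804 and 2408 for LP minus ML, where Chek2 and Brca2 were again called. The estimates against LP in this fit were 2.07 for Bard1 (adjusted p = 0.459), 1.86 for Fancd2 (0.564), 1.02 for Chek1 (0.824), 0.98 for Brca1 (0.739) and 0.14 for Chek2 (0.979).

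Across the 11 libraries, Pearson correlation of log2 CPM with Mki67 was 0.99 for Bard1, 0.96 for Fancd2, 0.90 for Brca1, 0.89 for Chek1, 0.85 for Chek2, 0.82 for Brca2, 0.58 for Palb2, 0.49 for Atm and -0.51 for Atr. These points share library depth and sample type, and without the cultured libraries (9 libraries) the value fell to 0.12 for Atm and -0.04 for Palb2, while that of Bard1 was again 0.99. Of the 100 genes most correlated with each member, 8 for Fancd2, 7 for Bard1, 2 for Brca1 and 2 for Chek1 were from the proliferation list, and 0 for the other 5 members. That list is 21 of the 15413 genes ranked. Of these 21, 20 were called higher in MaSC/basal than in LP and 21 than in ML, so the counts are not independent of that difference. The genes most like Brca1 were Orc2, Mrpl12, Nup107, Ap1m1 and Mms22l (r of 0.98), of which Orc2 encodes a subunit of the origin recognition complex. Those most like Brca2 were Fut10, Amot, Rab11fip2, Eef1aknmt and Tada2a (r of 0.96), and those most like Atm were A630089N07Rik, Prpf3, Yy2, Eny2 and Rttn (r from 0.95 to 0.93).

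The wider homologous recombination machinery was also higher more often than lower. Of 41 further genes tested of this pathway, 23 were called higher and 4 lower in MaSC/basal than in LP (against 29.4% and 28.0% of all genes), with a median log2 of 0.56, and across 17 other settings of scaling, filter, tool, block and left-out libraries 21 to 26 were higher and 1 to 4 lower (1 without MaSC/basal replicate 2, and 2 without LP replicate 2 or LP replicate 3). With the proliferation score or Mki67 as a covariate, 0 were called in either direction against LP or against ML by edgeR, and the same held for the Fanconi, checkpoint and end joining lists. Among the genes with the largest differences from LP were Rmi2 (2.37, at most 1.54 CPM in the sorted libraries), which encodes a subunit of the BLM helicase complex, Rad54l (2.36), which encodes a DNA translocase of the pathway, and the nuclease-helicase gene Dna2 (2.13).

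Against ML, 20 of the 41 were higher and 5 lower (17 to 22 and 2 to 5 under the 17 settings without a covariate, with 3 lower without MaSC/basal replicate 1 and 2 without ML replicate 3), with a median of 0.42. Of all genes tested, 28.9% were higher and 29.7% lower than in ML. The nuclease subunit gene Eme1 (2.09), the BRCA1-binding helicase gene Brip1 (2.07) and Rad54l (2.07) were among the largest differences. In LP against ML, 14.3% of all genes tested were higher and 17.5% lower. Between LP and ML, 1 of 41 was higher and 5 were lower (0 to 2 and 1 to 8 under those settings; 1 lower without LP replicate 1, 2 without LP replicate 2 or ML replicate 1, and 3 without ML replicate 3): the resection factor gene Rbbp8 was higher in LP (0.71, adjusted p = 0.0285), and Abraxas1 (-0.76), Swi5 (-0.67) and Rpa1 (-0.62), which encode a BRCA1-A complex scaffold, a cofactor of strand exchange and the large subunit of replication protein A, were among the lower.

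In the Fanconi anaemia list, 6 of 16 were higher and 0 lower in MaSC/basal than in LP by edgeR (3 to 7 and 0 to 1 under the settings without a covariate, with 3 higher without MaSC/basal replicate 1 or LP replicate 1), with Fanci, the partner of FANCD2, at a log2 of 2.32 (adjusted p = 4.74e-06) against LP and 2.09 (adjusted p = 7.29e-06) against ML. Against ML, 6 were higher and 3 lower, the lower ones including the core complex genes Fancg (-1.11) and Faap24 (-1.06). The shares of all genes tested were 29.4% higher and 28.0% lower than in LP, and 28.9% and 29.7% than in ML. Of 19 checkpoint genes, 11 were higher and 2 lower than in LP and 10 higher and 1 lower than in ML (9 to 11, 2 to 3, 9 to 10 and 0 to 1 under the settings without a covariate; 0 lower than in ML without MaSC/basal replicate 2 or ML replicate 3). The highest were Cdc25b (3.19 over LP), Cdc25c (2.99), which encode phosphatases that drive entry into mitosis, and Clspn (2.60), which encodes the adaptor for CHK1 activation, whereas Wee1, the kinase gene that opposes mitotic entry, was lower (-1.86, adjusted p = 0.00105).

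The lists of other repair pathways had calls in both directions, at counts near or below the shares of all genes. Among all genes tested, 29.4% were higher and 28.0% lower in MaSC/basal than in LP, and 28.9% and 29.7% than in ML. End joining had 5 of 17 higher and 3 lower in MaSC/basal than in LP, and 4 and 4 than in ML (3 higher than in LP without MaSC/basal replicate 1, MaSC/basal replicate 2 or LP replicate 1), with Xrcc5 (Ku80; 1.92 over LP) and the polymerase theta gene Polq (1.31) higher and the shieldin subunit gene Mad2l2 lower than in ML (-2.32, adjusted p = 1.37e-05). Excision and mismatch repair had 4 of 24 higher and 3 lower than in LP and 7 and 4 than in ML (4 and 2 without ML replicate 1, 5 and 2 without MaSC/basal replicate 1, and 1 and 0 with the score as a covariate), with the uracil glycosylase gene Ung (1.73 over LP) and the mismatch recognition gene Msh6 (1.68) highest and the polymerase beta gene Polb lower (-0.58 against LP, -0.90 against ML). Their median log2 differences from LP were 0.15 and 0.11, beside 0.62 for the checkpoint list and 0.27 for the Fanconi list.

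**Figure D4:**
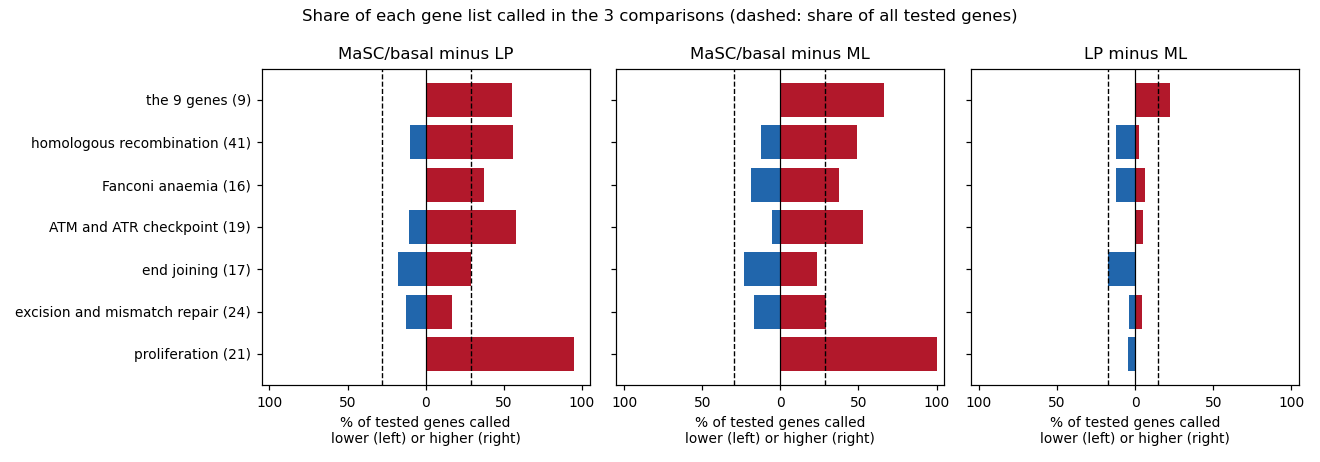
Percentage of the tested genes of each list (number tested in brackets) called lower (blue, left) or higher (red, right) in the 3 comparisons of sorted populations, with dashed lines at the share of all 15422 genes. In the MaSC/basal comparisons the proliferation list reaches 20 of 21 and 21 of 21 genes higher and the homologous recombination and checkpoint lists pass the right dashed line, whereas for LP minus ML each of these 3 lists stays short of it.

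In the cultured libraries, which are 1 each and allow no test, the members split again. Mammospheres had 1 member over 2-fold higher than the MaSC/basal mean, against 19.7% of all genes, and 3 over 2-fold lower, against 20.0%. The higher one was Palb2, at 5.19 CPM against 1.60 to 1.75 CPM in MaSC/basal (log2 1.62), and the lower ones were Bard1 at 4.26 CPM (-1.32), Chek1 at 4.89 CPM (-1.26) and Fancd2 at 4.60 CPM (-1.25). Mki67 was at 115 CPM, a log2 of -0.81, and 14 of the 21 proliferation genes were over 2-fold lower. Brca1 at 8.03 CPM (-0.76), Brca2 at 12.2 CPM (-0.59), Chek2 at 7.55 CPM (-0.48) and Atm at 48.5 CPM (-0.36) lay below all 3 MaSC/basal libraries and within 2-fold of their mean, and Atr at 37.7 CPM lay inside their range. Per 100 Mki67 reads, Palb2 was at 4.51 in mammospheres, which lay in the luminal range of 3.96 to 5.74 and above the 0.72 to 0.92 of MaSC/basal. This likeness was of the ratio alone. Palb2 at 5.19 CPM and Mki67 at 115 CPM both lay above all luminal libraries, which reached 2.19 and 43.8 CPM. Immune markers summed to 42.0 CPM and fibroblast markers to 1680 CPM in this library, beside 3.51 and 2040 CPM in Comma Dβ. Past 2-fold from the MaSC/basal mean, 4 of 6 immune markers tested were higher in mammospheres and 2 lower. Of the 4 fibroblast markers, 3 were higher and Dcn was at a log2 of -0.93. The part of these cells was not tested.

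Comma Dβ had 5 members over 2-fold higher than MaSC/basal, against 16.9% of all genes, and 0 over 2-fold lower, against 24.8%. These were Palb2 at 7.59 CPM (log2 2.17), Brca1 at 49.2 CPM (1.85), Bard1 at 28.1 CPM (1.39), Fancd2 at 26.7 CPM (1.28) and Brca2 at 37.6 CPM (1.03), beside Mki67 at 565 CPM (1.49). Chek2 at 20.9 CPM (0.99) lay just inside 2-fold, Chek1 was at 20.1 CPM (0.77) and Atm at 97.9 CPM (0.66), each above all sorted libraries, and Atr at 40.4 CPM (0.14) was not. Of the homologous recombination list, 17 of 41 were over 2-fold higher in Comma Dβ and 1 lower. The higher ones were led by Fignl1 (2.75) and Exo1 (2.33), which encode an ATPase of the pathway and a resection nuclease. Mammospheres had 1 of 41 higher, against 19.7% of all genes, and 6 lower, against 20.0%, with Rad54l (-1.99) the lowest. Neither mammosphere count exceeded these shares. Comma Dβ came from another strain and from batch 3, which held no MaSC/basal library, so that strain, line, culture and batch cannot be told apart.

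**Figure D5:**
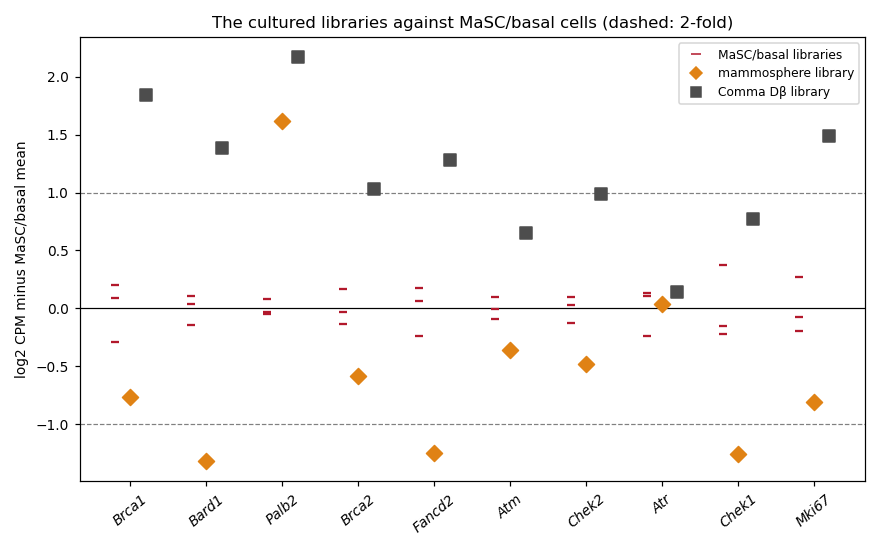
Log2 CPM of each member and Mki67 in the mammosphere (diamond) and Comma Dβ (square) libraries minus the mean of the 3 MaSC/basal libraries (dashes), with dashed lines at 2-fold. Palb2 is above the upper line in both cultured libraries, at 1.62 and 2.17, whereas Bard1 and Fancd2 are below the lower line in mammospheres and above the upper one in Comma Dβ.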

How the data were processed

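RNA was sequenced from 11 libraries (3 MaSC/basal, 3 LP, 3 ML, 1 mammosphere and 1 Comma Dβ) as single-end reads, which the authors aligned to mm10 with Rsubread, assigned to Entrez genes with featureCounts and deposited as raw counts per gene, 27179 genes a library. Handling of strand and of reads with several matches is not given in the sources used here. The submitters' notes also name CASAVA 1.8.0, edgeR 3.6.2 and limma 3.20.5. Per the labels, the library kit version differed between batch 1 and batches 2 and 3. Groups and batches came from the labels, and replicates were numbered in accession order.

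Counts were fitted in R 4.3.3 with edgeR 4.0.16 (quasi-likelihood test, TMM factors, each of the 5 sample types given its own mean over all 11 libraries) for genes over 0.5 CPM in at least 3 libraries (15422 genes), with Benjamini-Hochberg adjustment over all of them and calls at an adjusted p under 0.05. SE is the size of the log2 fold change over the square root of F. Log2 CPM used a prior count of 2, and single libraries were counted past a log2 difference of 1. Symbols, positions and promoters came from RefSeq and GENCODE tables of GRCm38. Total counts were 19958838 to 75795034, at which 3 reads correspond to 0.0399 to 0.16 CPM. On simulated counts for MaSC/basal minus LP (14983 genes), 90 of 100 genes changed by a log2 of 1 and 100 of 100 changed by 3 were recovered, with 8 calls outside. The simulation gave all genes the same spread, had no batch effect and changed far fewer genes than were called in the data. The changed genes were drawn from those above a minimum level, so the recovery does not carry over to thinly counted members such as Palb2.

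All 9 members and Mki67 were named, and for each list up to 4 called genes with the largest fold change per comparison; the values of some genes under this rule are not reported here. The members and lists were chosen with earlier results of these data known. Alternatives were DESeq2 1.42.0 size factors and Wald test, library totals, limma 3.58.1 voom, other filters, the sorted libraries alone, the batch as a block, proliferation covariates and leaving out each library. The labels mark shared library batches, which pair the libraries: deviations from group means in pairs of the same batch correlated at -0.12 to 0.53 (median 0.24, 9 pairs), and in other pairs at -0.42 to 0.11 (median -0.10, 18 pairs).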

Additional observations from a re-analysis of the deposited data

How the results depend on the processing

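With the library batch as a replicate block, 5, 6 and 2 members were called higher in MaSC/basal minus LP, MaSC/basal minus ML and LP minus ML, as without it, and the block changed no call of a member. Under the other scalings, filters and tools, with the sorted libraries alone and without each library, the 5 members against LP and the 6 against ML were called higher again. The count fell to 0 in both comparisons with the proliferation score as a covariate and to 0 with Mki67 as a covariate, and neither covariate overlaps between MaSC/basal and luminal libraries. For LP minus ML, 1 member was higher with library totals and 1 to 2 when a library was left out (1 without LP replicate 1, LP replicate 3 or ML replicate 1). Members lower were 2 with library totals, 1 with the DESeq2 Wald test and 0 to 1 when a library was left out (Fancd2 without MaSC/basal replicate 3, adjusted p = 0.0447).

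Differences that changed sign, as log2 values, were as follows. With the score as a covariate, MaSC/basal minus LP became -0.32 for Brca2, 0.49 for Atm, 0.54 for Atr and -0.34 for Chek2, MaSC/basal minus ML became -0.10 for Brca1 and 0.50 for Atr, and LP minus ML became -0.046 for Atr. With Mki67 as a covariate, chosen after seeing the data, MaSC/basal minus LP became -1.51 for Brca2, -1.15 for Palb2 and 0.017 for Atm, and MaSC/basal minus ML became -0.71 for Brca2. With library totals, Atm became 0.081 in MaSC/basal minus LP, and Bard1 -0.063 and Atr -0.13 in LP minus ML. Leaving out a library moved Palb2 in MaSC/basal minus LP between -0.10 (without LP replicate 2) and 0.18, and Atr in LP minus ML between -0.066 and 0.22, being below 0 without LP replicate 3, ML replicate 1 or ML replicate 2. In every one of these but Brca1 and Brca2 against ML and Chek2 against LP, the difference had not been called. The causes were not tested. For the cultured libraries, the counts past 2-fold stayed within 1.5 times under other scalings, a prior count of 0.5 and without each MaSC/basal library, and library totals moved the median of all genes by 0.23 in mammospheres and 0.29 in Comma Dβ. A shift of that size bears on members close to 2-fold in Comma Dβ, such as Chek2 (0.99) and Chek1 (0.77). Depth limits Palb2 and luminal Bard1, with as few as 31 reads.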
